A study of Drosophila melanogaster with 3 samples.

Results

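Binding of CG32006-GFP was examined at the genes that encode the subunits of the proteasome. The members were the protein-coding genes whose Ensembl symbol is Prosalpha, Prosbeta, Rpn or Rpt followed by a number, which gave 48 of the 13945 protein-coding genes on the 6 chromosome arms (25 Prosalpha and Prosbeta genes, 23 Rpn and Rpt genes). The material was whole Drosophila melanogaster prepupae of mixed sex from a transgenic line that stably expresses CG32006 with GFP at its C-terminus, pulled down with an antibody against GFP. The 1 group held 3 biological replicates, and there was no second condition. The labels do not name the promoter that drives the fusion or say whether an untagged CG32006 is still present, and their age of 48 days is not that of a prepupa. Reads came from all tissues together, so that binding in few cells and weak binding in many cannot be told apart. RefSeq lists FoxJ1, a forkhead factor name, among the synonyms of CG32006.

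The proteasome is the protease that degrades proteins marked with ubiquitin. Its core particle is a barrel of alpha rings (Prosalpha) outside and beta rings (Prosbeta) inside, and some of the beta subunits carry the proteolytic sites. The regulatory particle caps the barrel. Its base holds a ring of Rpt ATPases that unfold the substrate, with Rpn1, Rpn2, Rpn10 and Rpn13, and its lid is made of other Rpn subunits, among them the deubiquitinase Rpn11. In Drosophila many of these genes have a second copy, marked T (for testis) or R (for related) after the number, and several of these copies are known to be used in the male germ line. The members held 32 standard genes and 16 copies, 4 marked T and 12 marked R.

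CG32006-GFP was found at 6 proteasome promoters in the optimal list, 4 of them of the lid, and at 2 of these, Rpn5 of the lid and Rpn13 of the base, in every replicate. At Rpn5 the summit that replicate 2 listed lay nearer to Hat1, a gene transcribed away from it. A gene was called bound when a summit of the optimal list, the authors' list thresholded on the irreproducible discovery rate, lay within 500 bp of one of its transcription start sites (TSSs). By this rule 6 of 48 members were bound, 12.5% (Wilson 95% interval 5.86 to 24.7%), where 19.1% of all protein-coding genes were. The bound members were Rpn3, Rpn5, Rpn11 and Rpn12 of the lid, Rpn13 of the base, and Prosalpha4 of the core. The interval of the members held the share of all genes, so that no difference from other genes is read from this count. Within 200 bp of a TSS the members kept 12.5% and all protein-coding genes had 11.1%, so that the order of the shares turned. The 3 replicates had 6, 2 and 7 members bound in their own lists of the 11665 strongest peaks, a mean of 5.0 ± 2.65 (SD, n = 3). Over all protein-coding genes these lists had 20.5%, 18.2% and 21.9% bound.

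Replicate 2 stood apart from the other replicates. Of its 30000 regions 9587 had a −log10 q of at least 2, fewer than in replicate 1 (14910) or replicate 3 (17614), and 10.1% of all promoter-proximal optimal summits lay in none of its regions, beside 1.79% and 2.73%. Its part in the results was not tested. With the optimal peaks that replicates 1 and 3 both had among their strongest (without replicate 2), the same 6 members were bound, beside 16.3% of all protein-coding genes. Without replicate 1, and likewise without replicate 3, the bound members were Rpn5 and Rpn13 alone (2 of 48, 4.17%), beside 15.1% and 15.3% of all protein-coding genes. The optimal peaks were the 11665 regions with the highest signal in the pooled list, made on all 3 replicates together, so that an optimal peak need not recur in each replicate.

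**Figure D1:**
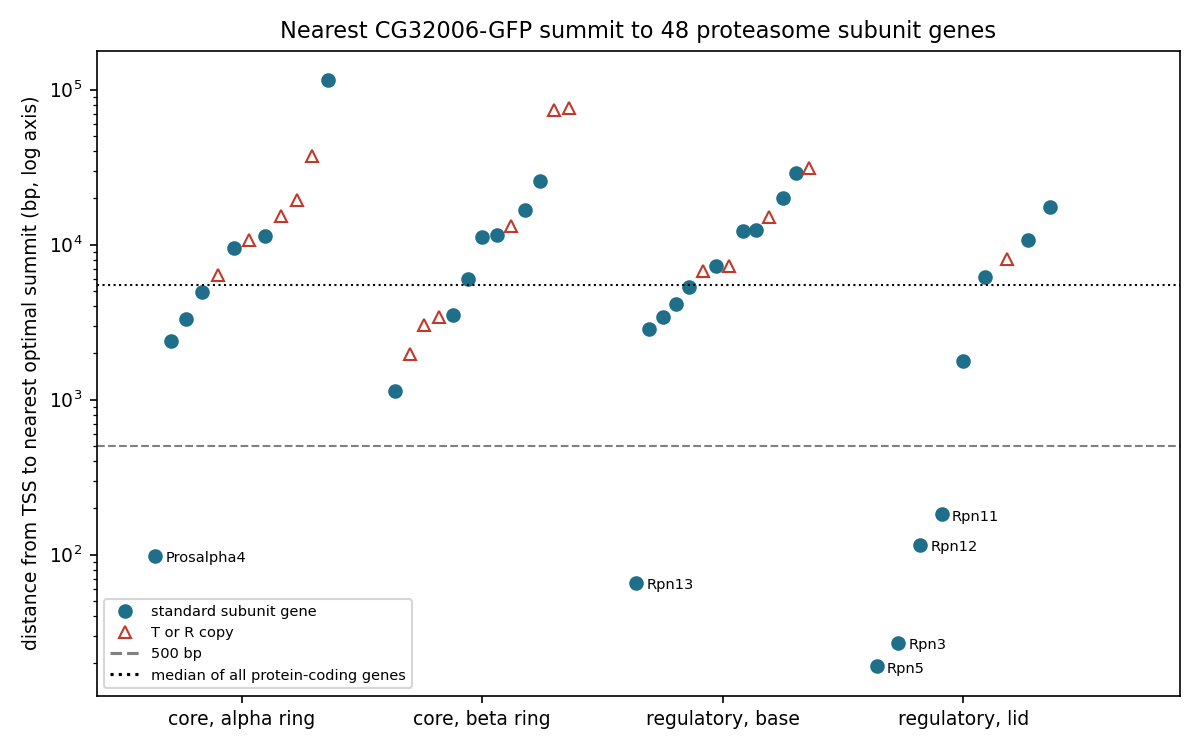
Distance in bp (log axis) from a TSS of each of the 48 members to the nearest optimal summit, by place in the proteasome; filled circles are standard genes, open triangles T and R copies, the dashed line is 500 bp and the dotted line the median of all protein-coding genes (5514 bp). The 6 bound genes lie at 19 to 182 bp, and no other member lies closer than 1135 bp.

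The sequence around a summit shows where the signal was highest and not which bases were bound. Replicate summits could lie outside the windows given here, as at Rpn11, where that of replicate 3 lay 82 bp from the optimal summit. The windows reaching 50 bp either side of the optimal summits of Rpn11, Rpn3, Rpn12, Rpn5 and Prosalpha4 are given 5′ to 3′ in the direction of the gene (RefSeq sequence of Release 6, dm6). Capitals mark runs of 6 or more A or T. They lie at chr2L:5059922-5060022 (minus strand) for Rpn11, chr2L:19051713-19051813 (plus) for Rpn3 and chr3L:16582863-16582963 (plus) for Rpn12. Those of Rpn5 are at chr3R:5789217-5789317 and chr3R:5789424-5789524 (plus), and those of Prosalpha4 at chrX:16275899-16275999 and chrX:16276122-16276222 (plus).
Rpn11: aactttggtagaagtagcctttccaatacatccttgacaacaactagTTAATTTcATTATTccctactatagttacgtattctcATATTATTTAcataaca
Rpn3: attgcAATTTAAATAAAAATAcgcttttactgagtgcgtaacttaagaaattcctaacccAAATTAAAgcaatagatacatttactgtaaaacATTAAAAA
Rpn12: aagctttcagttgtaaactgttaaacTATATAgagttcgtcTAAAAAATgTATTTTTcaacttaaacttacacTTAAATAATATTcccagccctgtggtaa
Rpn5, strong summit: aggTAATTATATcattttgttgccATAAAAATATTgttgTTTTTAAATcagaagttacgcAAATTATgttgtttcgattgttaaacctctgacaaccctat
Rpn5, weaker summit: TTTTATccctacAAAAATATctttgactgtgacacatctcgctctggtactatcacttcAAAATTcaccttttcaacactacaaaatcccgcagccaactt
Prosalpha4, stronger summit: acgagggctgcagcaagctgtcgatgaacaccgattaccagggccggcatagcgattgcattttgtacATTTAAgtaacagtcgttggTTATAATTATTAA
Prosalpha4, weaker summit: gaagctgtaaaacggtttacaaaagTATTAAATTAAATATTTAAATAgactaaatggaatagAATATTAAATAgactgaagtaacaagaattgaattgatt

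Most of these windows were rich in A and T. The 8 summits at bound members, Rpn13 included, had a mean GC content of 30.0% ± 7.19 (SD over summits), beside 34.0% ± 9.95 over all 2676 promoter-proximal summits. The lowest was the weaker Prosalpha4 summit with 21.8%, which holds the longest A or T run of the 7 windows shown, 22 bases. The highest was the other Prosalpha4 summit with 43.6%, and the weaker Rpn5 summit had 37.6%. These 2 lay above the mean of promoter-proximal summits. In windows reaching 100 bp either side the 8 summits lay between 24.9% and 32.8%, beside a mean of 35.4% ± 8.06 over promoter-proximal summits.

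Among the 8 standard lid genes 4 were bound (50%, Wilson interval 21.5 to 78.5%), against 1 of the 10 standard base genes (10.0%, 1.79 to 40.4%). With the copies the lid had 4 of 9 bound (44.4%, 18.9 to 73.3%) and the base 1 of 14 (7.14%, 1.27 to 31.5%). The share of all protein-coding genes was 19.1%. The interval of the standard lid genes lay just above it and that of the standard base genes held it, while with the copies both intervals held it. The lid and base intervals overlap with and without the copies, and no test of the difference was made. Without replicate 1 or without replicate 3 the count was 1 of 8 in the lid (Rpn5) and 1 of 10 in the base (Rpn13), and the same counts were found in replicate 2 alone, so that the higher share of the lid rests on the peaks replicate 2 did not list. Column 7 of the lists, the peak signal, is the authors' value on a scale that is not stated, and it ranks peaks within a list only. The highest signal among the members was at Rpn5, a lid subunit with a PCI scaffold domain. Its strongest summit had a signal of 1217, rank 1737 of 11665, above 76.7% of the promoter-proximal summits. A second summit in the same peak (chromosome 3R, 5789043 to 5789535) had a signal of 455. In the replicates the strongest region at Rpn5 had signals of 381, 425 and 409 and ranks of 1568, 1759 and 1974. All 3 replicates placed it among their strongest peaks, and these summits lay 209 to 227 bp upstream of the TSS. They lay nearer to a start of the neighbour Hat1, 109 bp upstream of that of Rpn5. The weaker optimal summit, 19 bp upstream of the Rpn5 TSS, had its nearest replicate 2 summit 190 bp away.

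Rpn3, another PCI subunit of the lid, had the second strongest peak (chromosome 2L, 19051684 to 19051925), with a signal of 1001 and its summit 27 bp upstream of the TSS. It ranked 2303, above 71.5% of the promoter-proximal summits. Replicate 1 had a signal of 264 there (rank 2680) and replicate 3 one of 375 (rank 2251), while replicate 2 listed no region at all among its 30000, with its nearest summit 7360 bp away. Few of the strongest optimal summits lay in no region of a replicate. Of the 2500 strongest optimal summits, a number set after the rank of Rpn3 was seen, 3.40% lay in no region of replicate 2, 0.560% in none of replicate 1 and 0.280% in none of replicate 3. Most of these summits ranked above that of Rpn3, and they were not limited to promoters. Of the promoter-proximal summits of any signal, 10.1% lay in no region of replicate 2. The share for promoter summits of the rank of Rpn3 was not counted.

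Rpn11 encodes the metalloprotease that removes ubiquitin chains from the substrate. Its peak (chromosome 2L, 5059737 to 5060206) had a signal of 405 and a summit 182 bp upstream, the farthest from its TSS of the 6 nearest summits. The signal was 120 in replicate 1 and 169 in replicate 3, and replicate 2 had no region within 500 bp. Rpn12, a further PCI subunit, had the weakest of the lid peaks (chromosome 3L, 16582678 to 16583147), with a signal of 261 and a summit 115 bp upstream. Its signal was 65.5 in replicate 1, at rank 11311 just inside the 11665 strongest, and 131 in replicate 3. Replicate 2 again listed none. So 3 of the 4 bound lid genes rested on replicates 1 and 3.

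The other standard lid genes were Rpn6, Rpn7, Rpn8 and Rpn9. At Rpn9 the pooled list held a region at rank 18976 with a −log10 q of 0.907, far below the optimal list. Each replicate also listed a region there, at ranks 19426, 16681 and 19854. Rpn7 had a region in replicate 3 only (rank 20652). Rpn6 and Rpn8, the partner of Rpn11, had none in any list within 500 bp of a TSS, and their nearest optimal summits lay 17470 and 10778 bp away.

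**Figure D2:**
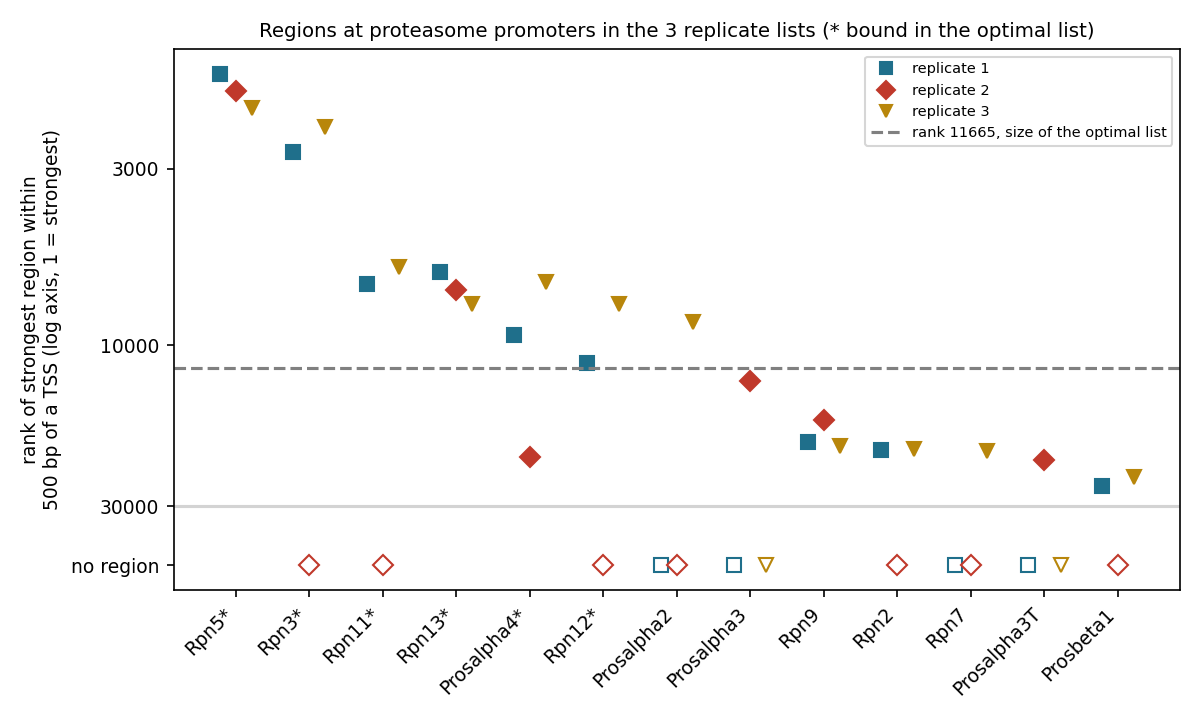
Rank (log axis, 1 is the strongest) of the strongest region within 500 bp of a TSS in the list of each replicate, for the 13 members that had one in at least 1 replicate; asterisks mark the 6 bound genes, open symbols at the bottom a list with no region, and the dashed line rank 11665. At Rpn5 and Rpn13 all 3 replicates lie above the line, while Rpn3, Rpn11 and Rpn12 have no region in replicate 2.

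In the base, Rpn13 was bound and none of the Rpt genes was. Rpn13 encodes a ubiquitin receptor. Its peak (chromosome 2R, 13960235 to 13960704) had a signal of 380 with the summit 66 bp upstream of the nearest of 3 TSSs. It had signals of 130, 130 and 131 in the replicates, at ranks 6075, 6857 and 7543, inside the strongest peaks of each. With Rpn5 it was 1 of 2 members bound in all 3 replicate lists. Among the 6 bound members that is 33.3%, beside 75.7% of all bound protein-coding genes.

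Of the 9 Rpt genes, which encode the ATPases, 0 were bound in the optimal list and in each of the 3 replicate lists. A count of 0 in 9 allows a share of up to 33.3%, a limit that covers counting error only. The 19.1% of all protein-coding genes in the optimal list lies within it, as do the 20.5%, 18.2% and 21.9% of the replicate lists. The nearest optimal summit was 2869 bp away for Rpt2, 3406 bp for Rpt6 and 5328 bp for Rpt5. The last of these is the strong peak (signal 5537, rank 40) that lies nearest to PTPMT1 and 187 bp from a TSS of Hrd3. Rpt1, Rpt3 and Rpt4 lay 12178 to 28892 bp from a summit. The scaffold gene Rpn2 had a region at rank 25092 of the pooled list (−log10 q of 0.384). The ubiquitin receptor genes Rpn1 and Rpn10 had no region within 500 bp in any list.

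**Figure D3:**
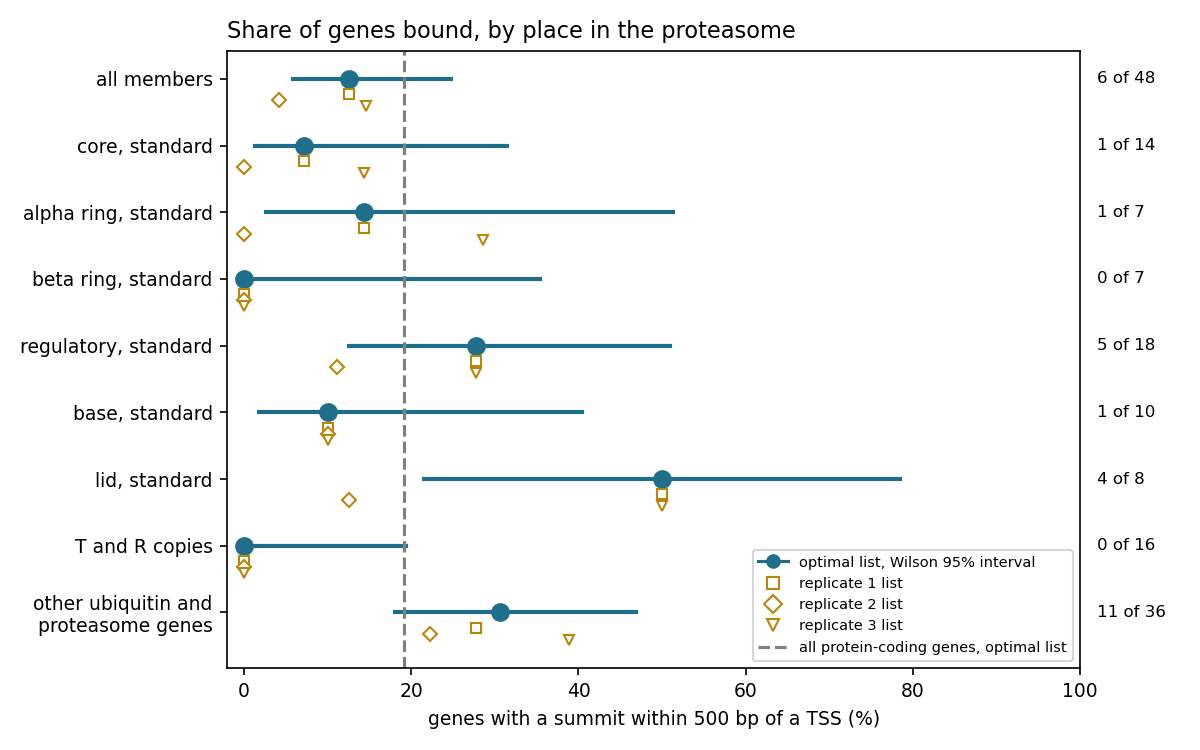
Percent of genes with a summit within 500 bp of a TSS, by group; filled circles with bars are the optimal list with its Wilson 95% interval, open symbols the lists of the 3 replicates, and the dashed line all protein-coding genes (19.1%). Standard lid genes reach 50% in the optimal list and in replicates 1 and 3 and 12.5% in replicate 2.

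In the core 1 of the 14 standard genes was bound (7.14%, Wilson interval 1.27 to 31.5%), and with the copies 1 of 25 (4.0%). In the regulatory particle 5 of 18 standard genes were bound (27.8%, 12.5 to 50.9%), and with the copies 5 of 23 (21.7%). The intervals overlap and both hold the 19.1% of all genes. Replicate lists had 1, 0 and 2 core genes and 5, 2 and 5 regulatory genes bound.

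Prosalpha4, an alpha ring subunit, was the core gene that was bound. It had a pair of overlapping peaks. The stronger (X chromosome, 16275714 to 16276183) had a signal of 353 and a summit 321 bp upstream of the TSS. The other had a signal of 200, above 1.49% of the promoter-proximal summits and with a −log10 q of 2.82, and its summit was 98 bp upstream. The strongest region in replicate 1 had a signal of 82.0 (rank 9304, summit 303 bp upstream) and that in replicate 3 one of 153 (rank 6478, 224 bp upstream). Closer to the TSS, replicate 1 had a signal of 38.9 (59 bp upstream) at rank 16816 with a −log10 q of 1.49, outside its strongest peaks. Replicate 3 had 94.8 there (18 bp upstream) at rank 10048, inside its strongest peaks. Replicate 2 had a single region, with a signal of 36.4 at rank 21417 (−log10 q of 0.314, summit 95 bp upstream), outside its strongest peaks.

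None of the 13 beta ring genes was bound, which allows a share of up to 23.1%. The 19.1% of all protein-coding genes lies within what this count allows. Among them are Prosbeta1, Prosbeta2 and Prosbeta5, which encode the proteolytic subunits. Prosbeta1 had a region at rank 25851 of the pooled list, with a signal of 63 and a −log10 q of 0.345. Prosbeta2 and Prosbeta5 had none in any list, and their nearest optimal summits lay 6044 and 11579 bp away. Prosbeta6 was the member just outside the 500 bp, at 1135 bp, and that summit lay 64 bp from the TSS of CG4098. The bound gene nearest to the threshold from inside was Rpn11, at 182 bp.

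Of the alpha ring genes that were not bound, Prosalpha2 had a region in replicate 3 among its strongest peaks (signal 114, rank 8560, summit 212 bp upstream) and none in replicates 1 and 2 or in the pooled list. Prosalpha3 had regions in replicate 2 only, the stronger at rank 12812 with a −log10 q of 1.11. Prosalpha1 and Prosalpha1R could not be judged if only uniquely placed reads were used, which the sources used here do not say. Of the 971 words of 31 bases within 500 bp of the start of each, 0 occurred once in the 6 arms, so that reads of this length would have no unique place there. At Prosalpha3 86.8% of these words were unique, at Rpn3 89.3%, and at the other 44 members at least 92.3%. The read length is not given either. Without Prosalpha1 and Prosalpha1R, a choice made after seeing the data, 6 of 46 members (13.0%, Wilson interval 6.12 to 25.7%), 6 of 31 standard genes (19.4%) and 1 of 13 standard core genes (7.69%) were bound.

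None of the 16 copies was bound, neither in the optimal list nor in the list of any replicate, and none had a region in the pooled list of 30000. A count of 0 in 16 allows a share of up to 18.8%, just under the 19.1% of all protein-coding genes, while its Wilson interval reaches 19.4%. Leaving out Prosalpha1R, a choice made after seeing the data, 0 of 15 copies were bound, which allows up to 20%. Whether the count allows the share of all genes thus turns on the limit used and on Prosalpha1R, and no difference is read from it. The single region found was at Prosalpha3T, in replicate 2 at rank 21904 with a −log10 q of 0.296. The 32 standard genes had 6 bound (18.8%, Wilson interval 8.89 to 35.3%), a share within the limit for 0 in 15. The 4 copies marked T were Prosalpha3T, Prosalpha4T1, Prosalpha4T2 and Prosalpha6T, with the nearest optimal summit 10776 to 37133 bp away. Of those marked R, Prosbeta5R1 had the closest summit, 1966 bp downstream of its TSS, and Prosbeta4R1 the farthest, at 75892 bp. The median distance was 12016 bp for the copies, 5686 bp for the standard genes and 5514 bp for all protein-coding genes.

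The bound and the unbound copy of a subunit were a pair at Rpn12 and Rpn12R, at Rpn13 and Rpn13R, and at Prosalpha4 and its copies Prosalpha4T1 and Prosalpha4T2. The nearest optimal summit was 115 bp from Rpn12 and 8067 bp from Rpn12R. It was 66 bp from Rpn13 and 7303 bp from Rpn13R. It was 98 bp from Prosalpha4, 15197 bp from Prosalpha4T1 and 37133 bp from Prosalpha4T2. The labels name whole animals, and the expression of the copies in them was not measured here.

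Most proteasome promoters had no region in the list of any replicate. Of the 48 members, 35 (72.9%) had none within 500 bp of a TSS in any of the 3 replicate lists of 30000, beside 57.8% of all protein-coding genes. Among the standard genes it was 20 of 32 (62.5%), and among the copies 15 of 16 (93.8%). These counts include Prosalpha1 and Prosalpha1R, which could not be judged if only uniquely placed reads were used. In the pooled list of 30000 regions 9 members (18.8%) had one, all of them standard genes (28.1% of these), beside 28.4% of all protein-coding genes. The 3 that this added to the bound genes were Rpn9, Rpn2 and Prosbeta1, all at a −log10 q under 1.

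The strongest summit of each had a median signal of 393 (range 261 to 1217), beside 691 over the 2659 bound protein-coding genes, and 2 of 6, Rpn5 and Rpn3, lay above that median. Without replicate 1, and likewise without replicate 3, the median was 799 over the remaining Rpn5 and Rpn13, beside 848 and 829 over the bound protein-coding genes, and without replicate 2 it was 393 beside 823. All 8 optimal summits lay 19 to 321 bp upstream of the nearest TSS of the member.

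**Figure D4:**
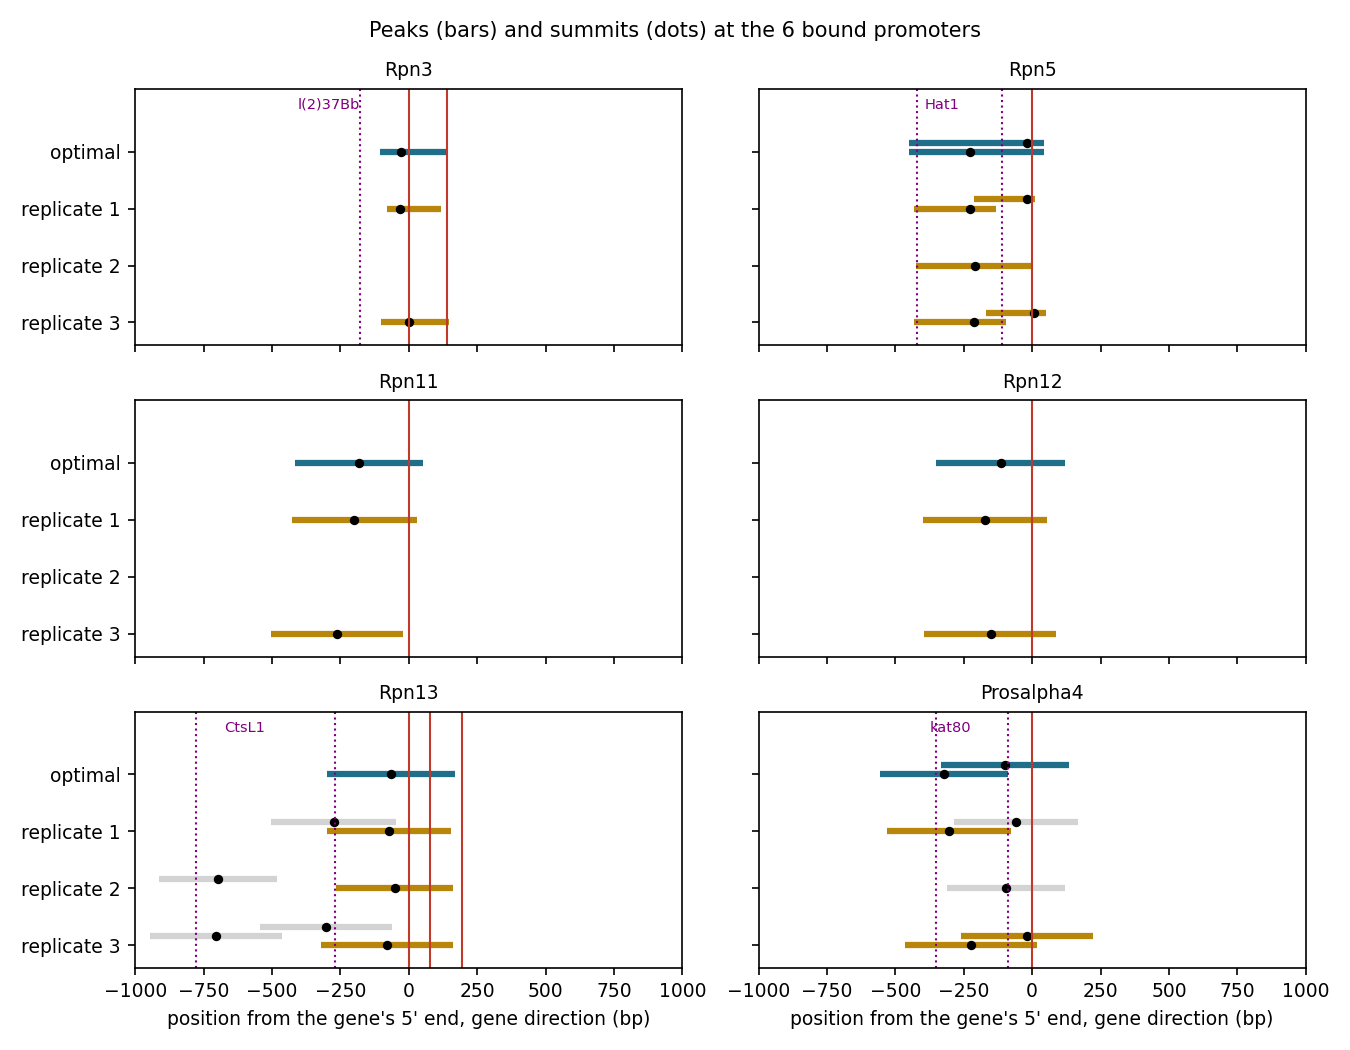
Peaks (bars) and summits (dots) within 1000 bp of the 5′ end of the 6 bound members, in the direction of the gene in bp; blue is the optimal list, ochre the replicate regions among their 11665 strongest, grey weaker regions, red lines TSSs of the member and dotted lines those of its neighbour. The optimal summits lie 19 to 321 bp upstream of the nearest TSS of the member, and those of Prosalpha4 lie 32 and 8 bp from a start of the divergent kat80; replicate 3 has a summit at the start of Rpn3 and one 7 bp downstream of that of Rpn5.

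Several of these peaks lay near the starts of both a member and a neighbour transcribed away from it. A head-to-head TSS within 1000 bp was found for 24 of the 48 members (50%), for 21 of the 32 standard genes (65.6%) and for 3 of the 16 copies (18.8%), beside 33.2% of all protein-coding genes. Of all protein-coding genes with such a neighbour 26.5% were bound, and of those without 15.4%. Of the members with one 4 of 24 were bound, namely Rpn3, Rpn5, Rpn13 and Prosalpha4. The strong Rpn5 summit lay 117 bp from a TSS of Hat1, a histone acetyltransferase gene, and 226 bp from that of Rpn5. It lay beyond the Hat1 start nearest to Rpn5, 109 bp upstream of the Rpn5 TSS, and so within Hat1. Both Prosalpha4 summits lay nearer to kat80, which encodes a katanin subunit, at 32 and 8 bp. They lay beyond the kat80 start nearest to Prosalpha4, 90 bp upstream of the Prosalpha4 TSS, and so within kat80. At Rpn3 the summit lay 27 bp from the member and 151 bp from l(2)37Bb. At Rpn13 it lay 66 bp from the member and 205 bp from CtsL1, a cathepsin gene. Which gene of a pair a peak belongs to cannot be told apart. Rpn11 and Rpn12 had no such neighbour within 1000 bp, and their summits lay 843 and 1211 bp from the next gene. A single TSS was annotated for 36 of the 48 members (75.0%), beside 73.5% of all protein-coding genes, and 4 of these 36 were bound. Of all protein-coding genes 12.8% were bound where they had 1 TSS and 36.5% where they had more.

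Many standard proteasome promoters, bound or not, carried a palindrome. The word TATCGATA, the site of the promoter factor DREF, stood in 12 of 32 standard promoters (37.5%, Wilson interval 22.9 to 54.7%) and in 0 of 16 promoters of the copies, in windows from 250 bp upstream to 50 bp downstream of the gene start on both strands. Of all protein-coding promoters 9.36% held it, 9.63% of the bound and 9.29% of the others. Among the members 3 of the 6 bound promoters held it, Rpn3, Rpn12 and Rpn13. A match is a description of the letters and not evidence of a bound site. The sites of Rpn3 and Rpn12 and of 4 unbound genes are shown with 10 bases on either side, in the direction of the gene, with the word in capitals.
Rpn3, chr2L:19051583-19051610, plus strand: gttatcggagTATCGATAtcgaaaaggc
Rpn12, chr3L:16582802-16582829, plus strand: tgttaaaataTATCGATAttaaagcaca
Prosalpha6, chr2L:10221325-10221352, plus strand: ccgaatccctTATCGATAcccgatacac
Prosbeta2, chr3L:14999931-14999958, plus strand: catgaatataTATCGATAcaatatcgat
Prosbeta6, chr3L:16610445-16610472, minus strand: tatgtataccTATCGATAacgtttaagc
Rpt5, chr3R:23752820-23752847, plus strand: tcgctgtcacTATCGATAagcgccggcg

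The word began 197 bp upstream of the start at Rpn3, 216 bp at Rpn12 and 217 bp at Rpn13. In the other 9 genes it began between 121 bp upstream and 26 bp downstream. The optimal summit lay 167 bp from the centre of the word at Rpn3, 98 bp at Rpn12 and 147 bp at Rpn13, so that it fell outside the summit window in each case. The shorter word TCGATA, which lies within TATCGATA and is known from sites of the insulator protein BEAF-32, was found in 24 of 48 members (50%), 20 of them standard, beside 27.7% of all promoters.

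The other 5 words were counted in the same windows. The forkhead word TGTTTAC was present in 6 of 48 member promoters (12.5%, Wilson interval 5.86 to 24.7%), beside 9.19% of all promoters, and in 0 of the 6 bound ones. The 6 were those of Prosbeta4R2, Prosbeta5, Prosbeta6, Rpt2, Rpn13R and Rpt6. The antioxidant response word TGACNNNGC, read by the Nrf family factor cnc, was found in 6 (12.5%) beside 8.63%, namely in Prosbeta4R2, Rpn1, Prosbeta3, Prosalpha2, Rpn7 and Rpt6. The GAGA word GAGAG stood in 9 (18.8%, 10.2 to 31.9%) beside 29.7% of all promoters, with unequal shares in the standard genes and the copies. It stood in 3 of 32 standard promoters (9.38%, 3.24 to 24.2%) and in 6 of 16 promoters of the copies (37.5%, 18.5 to 61.4%), a difference that was not tested. Within 50 bp of the gene start 1 member held it (2.08%, 0.369 to 10.9%), beside 11.5% of all promoters. The homeodomain word TAATTA stood in 5 (10.4%, 4.53 to 22.2%) beside 20.4%, and the E-box CACGTG in 0 (0 to 7.41%) beside 4.20%. Within 50 bp of the gene start 1 member held CACGTG (2.08%), beside 1.98% of all promoters. These shorter windows end slightly farther downstream than the longer ones, so that this match lay at the edge and the count of 0 depends on where the longer windows end. Both TAATTA matches at member summits, at Rpn5 and at the stronger Prosalpha4 summit, are in the windows printed above. The mean GC content of the member promoters was 34.9% ± 6.83 (SD over 48 genes), and that of all promoters 39.1% ± 7.74.

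Beyond the subunits, 11 of 36 genes that supply, assist or control the proteasome were bound (30.6%, Wilson interval 18.0 to 46.9%), and 10, 8 and 14 in the lists of the 3 replicates. The interval holds the 19.1% of all genes. The strongest was Hrd3 (signal 5537), a gene of the ligase that sends proteins of the endoplasmic reticulum to the proteasome. Next were Cul5 (908), a cullin gene whose nearest summit lay 494 bp away, just inside the 500 bp, and Pomp (842), which encodes the maturation factor of the core particle. The gene cnc, whose product is known to raise proteasome gene expression in Drosophila, had a signal of 780 and 10 TSSs. The polyubiquitin gene Ubi-p63E had 757, and Npl4, which encodes a cofactor of the segregase TER94, 459. The remaining bound genes were ago (421), eff (347), Cul3 (299), PI31 (299), which encodes a proteasome regulator, and Ube3a (242). Of the 11, Hrd3, Pomp, cnc, ago, eff and Cul3 were bound in all 3 replicate lists. Among the 25 not bound were Sem1, a small lid subunit outside the naming rule, the activator gene REG and Uba1, named after their values were seen.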

How the data were processed

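ChIP-seq with an antibody against GFP was done on chromatin sheared by sonication, per the labels. The authors deposited peak lists in dm6 and dm3, of which dm6 was used here. Per the deposited notes, the regions of each replicate and of the pool were called against a control. No source used here names the caller, aligner, IDR cut-off or read depth. Signal and −log10 q were taken unchanged from the deposited lists. Optimal and pooled values come from all 3 replicates and have no replicate error.

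A summit was the start of a peak plus its offset, held inside the peak. TSSs were those of every transcript in Ensembl release 115. With no promoter table given, promoters (250 bp upstream to 50 bp downstream of the gene start) were read from RefSeq's Release 6 genome. A replicate's strongest peaks were its 11665 highest by signal. Genes were named by rule: bound members, members just outside the 500 bp, members not bound with a region among a replicate's strongest peaks or among the 5 highest in the pooled list, and bound genes of the list of other ubiquitin and proteasome genes (36 of 37 symbols matched). Remaining members are given by group or distance and by their regions in single replicates, and the k-mer, palindrome and 2500-summit descriptions were added after seeing the data.

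Python 3.11.15, pandas 2.3.3, scipy 1.17.1 and Biopython 1.88 were used, and the TSS call was tested on simulated data. No significance test was run, since 1 group offers no contrast and the members and lists were chosen with earlier results of these data known. Wilson intervals and limits for a count of 0 (3 over the number of genes) cover counting error only.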

Additional observations from a re-analysis of the deposited data

How the results depend on the processing

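No paired analysis was possible because there is 1 group. Each count of bound genes was recomputed under 16 alternatives. Rpn5 stayed bound under 16 of them, Rpn13 under 15, Rpn3 under 12, Rpn11 and Rpn12 under 11 and Prosalpha4 under 10, and the 16 copies had 0 bound under each. These alternatives are not separate checks. Replicate 2 alone and the sets without replicate 1 or replicate 3 all turn on the peaks that replicate 2 listed. Looser rules, such as 1000 bp or the pooled list, keep every gene that was bound. Leaving out a replicate means keeping the optimal peaks supported by both others. The number of members then lay between 2 (without replicate 1 or replicate 3) and 6 (without replicate 2), core genes between 0 and 1, regulatory genes between 2 and 5, standard genes between 2 and 6, and the median signal between 393 and 799. The standard lid genes fell from 4 of 8 to 1 of 8 without replicate 1 or replicate 3. With the strongest 50% of optimal peaks, 2 members stayed (median signal 1109), 0 of them core and 2 regulatory. Replicate 2 alone, by its strongest peaks or by a −log10 q of at least 2, also gave 2 members (2 standard, 2 regulatory, 0 core). Core genes numbered 0 when a summit went only to the gene with the nearest TSS, since kat80 took both at Prosalpha4, and 2 in the pooled list and in replicate 3. Distances of 200 and 1000 bp left the 6 members, while all protein-coding genes fell to 1549 (11.1%) at 200 bp. Median signals in the replicates' own lists, 125, 278 and 153, are on their own scales. In windows reaching 50 bp either side of the gene start the share of members with TATCGATA was 14.6% (all genes 5.56%) and the shares with TGTTTAC and with GAGAG were 2.08% each, with TCGATA 29.2% and with TAATTA 0. The share with CACGTG was 2.08% there and that with TGACNNNGC 8.33%. Leaving out Prosalpha1 and Prosalpha1R, added after seeing the data, changed no count of bound genes. The call depends on unknown read depth, and 1 group of 3 replicates gives no contrast.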
